A study of Mus musculus with 27 samples.

Results

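The 10 genes described here belong to the stress response that is built around the transcription factor ATF4 and the endoplasmic reticulum (ER). They were taken by symbol from the 19392 genes of the expression table: Atf4, Ddit3, Trib3, Chac1, Asns, Atf5, Hspa5, Xbp1, Atf6 and Herpud1. All 10 were found and all 10 were above 0 FPKM in every kidney, so each passed the filter that left 18188 genes for testing. The study asked how the kidney responds as warm ischemia is lengthened. Its 27 mice were wild-type C57BL/6, and their ages were not stated in the sources used here. The paper describes removal of the right kidney without setting the sham mice apart. The pedicle of the left kidney was clamped for 0 (sham), 16, 18, 20, 22, 24, 26, 28 or 30 min, with 3 mice at each time. The left kidney was taken 24 h later for RNA-Seq of the whole organ. Whether sham mice also carried the nephrectomy is thus not stated outright. Every group was seen at a single time of reperfusion. FPKM scales the sequenced fragments of a gene to the length of its transcript and to the mapped fragments of the library.

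Cells answer unfolded protein in the ER, amino acid shortage and other stresses through kinases that phosphorylate eIF2alpha, which slows translation in general while favouring translation of the Atf4 mRNA. ATF4 then switches on genes for amino acid supply and for the decision between adaptation and death. The other branches of the unfolded protein response (UPR) run through IRE1, which splices the Xbp1 mRNA, and ATF6, which is cut by Golgi proteases, and both raise ER chaperones and the machinery of ER-associated degradation. Tubule epithelium makes and recycles much membrane protein, and this response is known in the ischemic kidney. Gene-level FPKM holds neither the splicing of Xbp1, the cleavage of ATF6, the translation of Atf4 nor the phosphorylation of eIF2alpha.

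After 28 and 30 min of ischemia the kidneys held more RNA of Atf4 and of all 5 members that stand for its programme (Ddit3, Trib3, Chac1, Asns and Atf5) than sham kidneys. The calls of Ddit3 and Chac1 at both times and of Atf4 at 28 min were lost in some fits on fewer kidneys. Hspa5, the main ER chaperone gene, was not called higher at any time and was lower at 30 min, and Herpud1 was lower at 28 and 30 min. From 16 to 26 min only Asns, Atf5 and Atf6 among the members passed the test against sham. The call of Asns was lost at each of these times in 1 or more fits that left out 1 kidney. At 16 min no member passed when only the sham and 16 min kidneys were fitted. Xbp1 was slightly higher at 28 min, and Atf6 was slightly lower at every time. Other scalings of FPKM (Atf6) or leaving out 1 kidney (Xbp1, and Atf6 at 30 min) removed these calls at some times.

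The genes lie on the GRCm38.p6 assembly, the build that the submitters' processing notes name. Positions from RefSeq are chr15:80255184-80257545 for Atf4, chr10:127290793-127296291 for Ddit3, chr2:152337425-152344060 for Trib3, chr2:119351242-119354326 for Chac1 and chr6:7675165-7693209 for Asns. The others are chr7:44812256-44816658 for Atf5, chr2:34772090-34776529 for Hspa5, chr11:5520641-5525993 for Xbp1, chr1:170704457-170868585 for Atf6 and chr8:94386429-94395371 for Herpud1. Several of these loci overlap annotated neighbours: Ddit3 overlaps Mbd6 and Mars1, Atf5 overlaps Nup62 and Il4i1b, Hspa5 overlaps Rabepk, and Atf6 overlaps 4 predicted genes. Strandedness of the libraries is not given in the sources used here, so reads of the shared stretches cannot be told apart. Among the neighbours, Nup62 was higher at 30 min than at 0 min by a log2 fold change of 0.95, Mbd6 by 0.58 and Mars1 by 0.34, while Il4i1b (-0.11) and Rabepk (0.10) did not pass the test.

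RefSeq promoter windows, from 250 bases before to 50 bases after the start of the gene, were available for 9 of the 10 genes. They were searched on both strands for 4 known response elements. CARE (TGATGNAA) is the composite site bound by ATF4 with C/EBP partners. ERSE (CCAAT, then any 9 bases, then CCACG) and ERSE-II (ATTGG, 1 base, then CCACG) are read by ATF6 and XBP1, and UPRE (TGACGTGG) by XBP1. Of all 32851 windows, 3.97% held CARE, 0.119% ERSE, 0.0365% ERSE-II and 0.676% UPRE. CARE was found in 4 of the genes, ERSE and ERSE-II in 1 each and UPRE in none, and no match overlapped another. The 5 windows with a match are printed 5′ to 3′ on the gene's strand, because they set 3 genes that rose beside the chaperone and degradation genes that fell; capitals mark the matches.
Asns, chr6:7693160-7693459, minus strand, CARE 23 bases before the start: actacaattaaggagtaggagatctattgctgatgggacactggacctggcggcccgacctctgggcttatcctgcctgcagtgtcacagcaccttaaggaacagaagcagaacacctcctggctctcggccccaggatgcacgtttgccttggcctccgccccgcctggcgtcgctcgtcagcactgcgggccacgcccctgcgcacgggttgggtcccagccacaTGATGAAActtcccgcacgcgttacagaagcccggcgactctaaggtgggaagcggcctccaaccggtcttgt
Chac1, chr2:119350992-119351291, plus strand, CARE in reverse 193 bases before the start: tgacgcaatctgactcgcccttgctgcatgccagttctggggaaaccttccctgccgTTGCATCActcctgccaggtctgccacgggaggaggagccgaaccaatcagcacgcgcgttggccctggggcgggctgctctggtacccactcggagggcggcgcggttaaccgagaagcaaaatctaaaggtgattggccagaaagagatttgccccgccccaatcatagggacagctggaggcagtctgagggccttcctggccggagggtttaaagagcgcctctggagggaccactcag
Trib3, chr2:152344011-152344310, minus strand, CARE in reverse at base 15 after the start: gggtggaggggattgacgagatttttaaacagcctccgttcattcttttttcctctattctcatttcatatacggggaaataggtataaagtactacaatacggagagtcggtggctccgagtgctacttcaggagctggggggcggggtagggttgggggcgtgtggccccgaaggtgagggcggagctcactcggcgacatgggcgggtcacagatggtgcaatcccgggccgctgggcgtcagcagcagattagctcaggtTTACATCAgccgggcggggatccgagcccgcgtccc
Herpud1, chr8:94386179-94386478, plus strand, CARE in reverse 112 bases and ERSE-II 52 bases before the start: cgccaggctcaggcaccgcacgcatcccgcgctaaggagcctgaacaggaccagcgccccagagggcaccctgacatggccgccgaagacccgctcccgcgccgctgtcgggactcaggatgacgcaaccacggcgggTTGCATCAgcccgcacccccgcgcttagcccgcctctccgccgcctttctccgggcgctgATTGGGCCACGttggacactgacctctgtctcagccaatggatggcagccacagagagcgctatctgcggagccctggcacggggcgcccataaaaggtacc
Hspa5, chr2:34771840-34772139, plus strand, ERSE 65 bases before the start: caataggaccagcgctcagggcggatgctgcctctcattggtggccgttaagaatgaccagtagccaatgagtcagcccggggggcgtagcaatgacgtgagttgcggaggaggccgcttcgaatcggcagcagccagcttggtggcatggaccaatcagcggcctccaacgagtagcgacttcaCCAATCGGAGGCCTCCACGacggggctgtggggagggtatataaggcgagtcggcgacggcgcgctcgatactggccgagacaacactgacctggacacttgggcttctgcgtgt
Such a match is a description of letters in the window and not a measured binding site. The windows of Atf4, Ddit3, Atf5 and Xbp1 held none of these letters.

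The depth of the libraries is unknown because the values are FPKM, and precision rests on the 3 kidneys per time. The FPKM of a kidney summed to 512453 to 554036, and no 2 kidneys held identical values. Sham replicate 3 stood apart within its group: it was the highest sham kidney for 9 of the 10 members, and the summed FPKM of 5 injured tubule markers was 90.1 in the highest sham kidney against 15.8 and 16.5 in the others. At 16 min, replicate 3 was the lowest kidney for 8 of the 10 members. Counts of members passing without these kidneys are given with the counts over all kidneys. The label of the tissue was checked on 10 proximal tubule markers, whose summed FPKM was 51098 to 54344 in sham kidneys. It was 13755 to 34594 from 16 to 26 min, 7893 to 9602 at 28 min and 5976 to 8326 at 30 min. Such a sum is weighted to the most abundant markers. At 26 against 0 min, 4 of the 10 passed as lower, beside 15.2% of all genes, with a median log2 fold change of -0.30. In whole kidneys, fewer cells of a type and less RNA per cell cannot be told apart.

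Atf4, the hub of the response, was expressed at a high level, above 93.7% of the tested genes by its mean. Its FPKM was 62.16, 58.79 and 95.36 in the sham kidneys. Over the 18 kidneys of 16 to 26 min it ran from 50.66 through a median of 66.5 to 96.18. It was 103.36, 100.32 and 119.62 at 28 min and 127.97, 124.72 and 134.19 at 30 min. All 6 kidneys of the longest ischemia were above all 21 others. The log2 fold change against 0 min was 0.56 ± 0.16 (SE) at 28 min and 0.92 ± 0.16 at 30 min, with limma adjusted p-values of 0.0071 and 6.6e-05. Without sham replicate 2 the value at 28 min was 0.44 and just missed the threshold (limma adjusted p = 0.0504), and when only the kidneys of 0 and 28 min were fitted it was 0.57 (adjusted p = 0.056). The plot of FPKM by ischemia time gives all kidneys for the 10 genes.

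**Figure D1:**
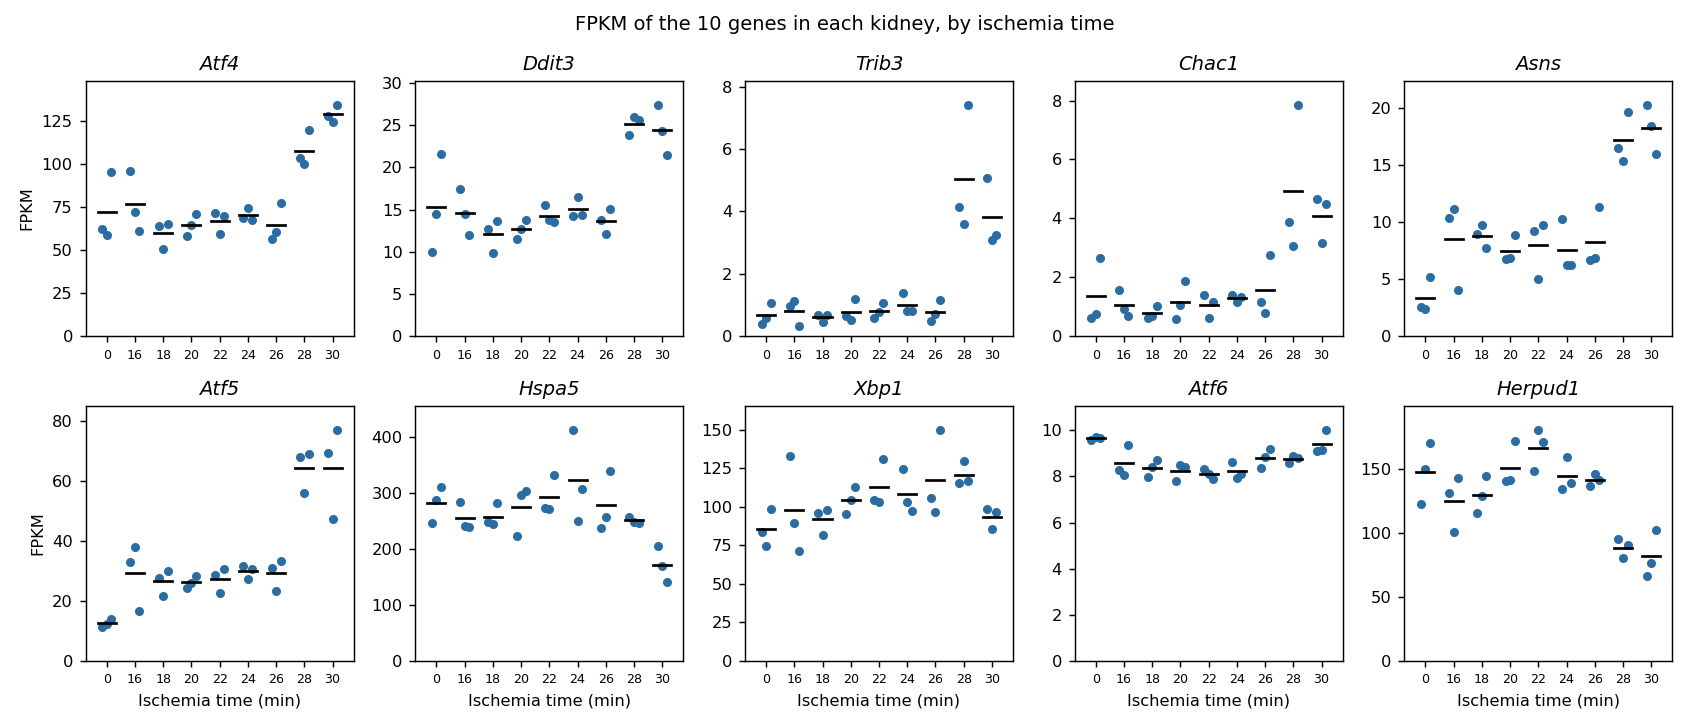
FPKM (vertical axis, linear, from 0) of the 10 genes against ischemia time in min, with 1 point per kidney and a line at the mean of 3 kidneys. Atf4, Ddit3, Trib3, Chac1, Asns and Atf5 step up between 26 and 28 min, Herpud1 steps down from a mean of 141.3 to 88.5, and Hspa5 falls to a mean of 171.5 at 30 min.

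Ddit3 encodes CHOP, the factor that links long ER stress to cell death. Its FPKM was 10.01, 14.5 and 21.54 in sham kidneys, 9.8 to 17.46 from 16 to 26 min (median 13.7), 23.85, 25.93 and 25.59 at 28 min and 27.35, 24.31 and 21.48 at 30 min. The 28 min kidneys were above every sham kidney, while the lowest kidney of 30 min was just below sham replicate 3. The log2 fold change against 0 min was 0.60 ± 0.17 at both times (limma adjusted p = 0.0072 and 0.0064). Without sham replicate 1, the lowest of the 3, both fell to 0.35 and no longer passed (limma adjusted p = 0.071 and 0.065). In the same fits Ddit3 passed as lower than sham at 18, 20 and 26 min (-0.62, -0.53 and -0.48). Fitted on the kidneys compared alone, the calls at 28 and 30 min were lost too (limma adjusted p = 0.11 and 0.13).

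Trib3 encodes a pseudokinase that is induced by ATF4 and CHOP and damps AKT signaling and ATF4 itself. It was the member with the widest range, from 0.33 to 7.41 FPKM over the 27 kidneys. Sham kidneys held 0.38, 0.58 and 1.06 FPKM, and the kidneys of 16 to 26 min 0.33 to 1.39 with a median of 0.735. The values were 4.15, 3.59 and 7.41 at 28 min and 5.08, 3.1 and 3.26 at 30 min. The lowest kidney of 28 and 30 min thus lay above the highest of all others. The mean FPKM at 28 min was 7.5 times that of sham kidneys, and the log2 fold change was 1.70 ± 0.23 at 28 min and 1.40 ± 0.23 at 30 min (limma adjusted p = 4.9e-06 and 3.3e-05). Fold changes were fitted on log2(FPKM + 1), which understates the change of a gene near 1 FPKM.

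Chac1, an enzyme that breaks down glutathione, was at a similar level. Its FPKM was 0.62, 0.76 and 2.66 in sham kidneys, 0.59 to 2.77 from 16 to 26 min (median 1.09), 3.87, 3.07 and 7.84 at 28 min and 4.65, 3.15 and 4.48 at 30 min. Sham replicate 3 and replicate 3 of 26 min came closest to the long ischemia, but no kidney of 0 to 26 min reached the lowest kidney of 28 or 30 min. The mean FPKM at 28 min was 3.66 times that of sham, and the log2 fold change was 1.23 ± 0.32 at 28 min and 1.07 ± 0.32 at 30 min (limma adjusted p = 0.0037 and 0.0086). Without sham replicate 1 the value at 30 min was 0.84 and missed the threshold (limma adjusted p = 0.056). In fits of the compared kidneys alone, Chac1 did not pass at 28 or 30 min (limma adjusted p = 0.073 and 0.055).

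Asns and Atf5 already passed as higher than sham at 16 min. Both calls at 16 min were lost when only the 6 kidneys of 0 and 16 min were fitted (limma adjusted p = 0.27 and 0.17), where 16 of all tested genes passed. Asns makes asparagine and is a classical target of the amino acid response. Its FPKM was 2.51, 2.37 and 5.21 in sham kidneys, 4.07 to 11.32 from 16 to 26 min (median 8.3), 16.48, 15.29 and 19.65 at 28 min and 20.21, 18.41 and 15.98 at 30 min. Fitted against 0 min, Asns had a log2 fold change of 0.86 to 1.10 over the 6 times from 16 to 26 min, 1.94 ± 0.30 at 28 min and 2.06 ± 0.30 at 30 min. The limma adjusted p was 0.0094 to 0.036 from 16 to 26 min, 2.1e-05 at 28 min and 7.2e-06 at 30 min. At the shorter times the call was not firm: it was lost at all 6 times without sham replicate 2 (0.71 to 0.95), at all but 18 min without sham replicate 1 (0.73 to 0.84), and at all but 18 min without 1 or more of that time's own kidneys or in fits of the compared kidneys alone.

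Atf5 encodes a factor of the ATF4 family whose translation is controlled in the same way and which guards mitochondrial protein folding. Its FPKM was 11.21, 12.31 and 13.85 in sham kidneys and 16.62 to 38.02 from 16 to 26 min (median 28.4), so that all 18 of these kidneys were above sham. It was 68.09, 55.86 and 68.83 at 28 min and 69.11, 47.21 and 76.95 at 30 min. Its log2 difference from sham ran from 0.92 to 1.09 over 16 to 26 min and reached 2.16 ± 0.22 at 28 min and 2.21 ± 0.22 at 30 min (limma adjusted p = 1.8e-07 and 6.8e-08). Among the 10 members Atf5 had the largest fitted log2 fold change at both times, on log2(FPKM + 1). By the ratio of mean FPKM to sham, Trib3 was ahead of it at 28 min (7.5 against 5.16). At 30 min Trib3 (5.66) and Asns (5.41) were ahead of Atf5 (5.17). The mean FPKM of Asns and Atf5 lay at 3 levels, sham, 16 to 26 min and 28 to 30 min. In the order of means, only the steps between these levels exceeded the larger SD of the neighbouring groups with no overlap of their kidneys. By the same measure Atf4 had steps between 30 and 28 min and between 28 and 16 min. Trib3 had 1, between 30 and 24 min, and Chac1 1, between 30 and 26 min, which are neighbours in the order of means. The lower step of Asns was not firm. Its lowest kidneys at 16 min (4.07 FPKM) and 22 min (5.03) were below sham replicate 3 (5.21).

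Hspa5 encodes BiP, the chaperone whose release from the sensors starts the UPR, and is the standard sign of ATF6 and XBP1 activity. It was the most abundant member, at 245.17, 287.61 and 309.42 FPKM in sham kidneys and 222.21 to 411.72 from 16 to 26 min (median 272). It was 256.61, 248.32 and 245.74 at 28 min and 205.23, 168.79 and 140.51 at 30 min. The 3 kidneys of 30 min were the lowest of all 27. Against 0 min Hspa5 had a log2 fold change of -0.14 at 28 min, with a 95% interval of -0.51 to 0.24, and -0.60 ± 0.18 at 30 min (limma adjusted p = 0.58 and 0.0078).

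Herpud1 encodes a membrane protein of the ER that assembles the degradation complex and is a target of ATF6, XBP1 and ATF4. Its FPKM was 122.79, 150.19 and 170.35 in sham kidneys, 100.85 to 180.45 from 16 to 26 min (median 141), 94.89, 80.29 and 90.18 at 28 min and 66.17, 76.72 and 102.22 at 30 min. Apart from replicate 3 of 30 min, every kidney of long ischemia was below every other kidney. Herpud1 had a log2 fold change of -0.73 ± 0.16 at 28 min and -0.80 ± 0.16 at 30 min (limma adjusted p = 0.00075 and 0.00026), which is a ratio of mean FPKM of 0.599 and 0.553.

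Xbp1, whose spliced form drives ER expansion, was at 83.31, 74.37 and 98.72 FPKM in sham kidneys, 71.1 to 149.87 from 16 to 26 min (median 103), 115.32, 129.99 and 116.44 at 28 min and 98.36, 85.5 and 96.65 at 30 min. The 28 min kidneys were above sham and the 30 min kidneys overlapped it. For Xbp1 the log2 fold change was 0.47 ± 0.18 at 28 min and 0.15 at 30 min (limma adjusted p = 0.037 and 0.51), and the first passed only without sham replicate 3 when 1 of the 6 kidneys was left out (0.39 to 0.52 and adjusted p of 0.050 to 0.13 without each of the others).

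Atf6, the sensor of the third branch, varied least, from 7.81 to 10.02 FPKM. Sham kidneys held 9.59, 9.72 and 9.69 FPKM, and the kidneys of 16 to 26 min 7.81 to 9.35 with a median of 8.35. The values were 8.58, 8.9 and 8.79 at 28 min and 9.11, 9.16 and 10.02 at 30 min. Every kidney from 16 to 28 min was below every sham kidney, by a small amount. The fitted log2 difference from 0 min was -0.24 to -0.33 from 16 to 26 min, -0.25 at 28 min and -0.14 at 30 min. The last (limma adjusted p = 0.040) passed in only 1 of the 6 fits that left out 1 kidney (limma adjusted p = 0.026 to 0.14). In FPKM without further normalization the value at 30 min was -0.03 and did not pass. When each kidney was scaled to the same total FPKM, the calls at 16, 26 and 28 min were lost too (-0.16, -0.10 and -0.15).

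Counted over the members, the same 3 genes passed at each of the 6 times from 16 to 26 min, with Asns and Atf5 higher and Atf6 lower. Over all tested genes the higher and lower calls were 9.43% and 9.61% at 16 min, 12.6% and 15.2% at 18 min, 10.7% and 12.1% at 20 min, 13.4% and 15.4% at 22 min, 13.6% and 14.8% at 24 min, and 14.9% and 15.2% at 26 min. The share of members called at these times was close to that background. At 28 min 7 members were higher and 2 lower, beside 24.5% and 23.6% of all genes, and 4 were DEGs (absolute log2 fold change above 1), beside 8.48%. At 30 min 6 were higher and 3 lower, beside 26.9% and 25.4%, and 4 were DEGs, beside 10.7%. The DEGs at both times were Trib3, Chac1, Asns and Atf5. The groups did not overlap in FPKM for 9 members at 28 min, beside 56.9% of all genes, and for 7 at 30 min, beside 54.5%. Without sham replicate 3, 9 members passed at 28 min, 8 at 30 min and 3 at each time from 16 to 26 min, and without replicate 3 of 16 min 3 passed at 16 min. All of these comparisons share the 3 sham kidneys.

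**Figure D2:**
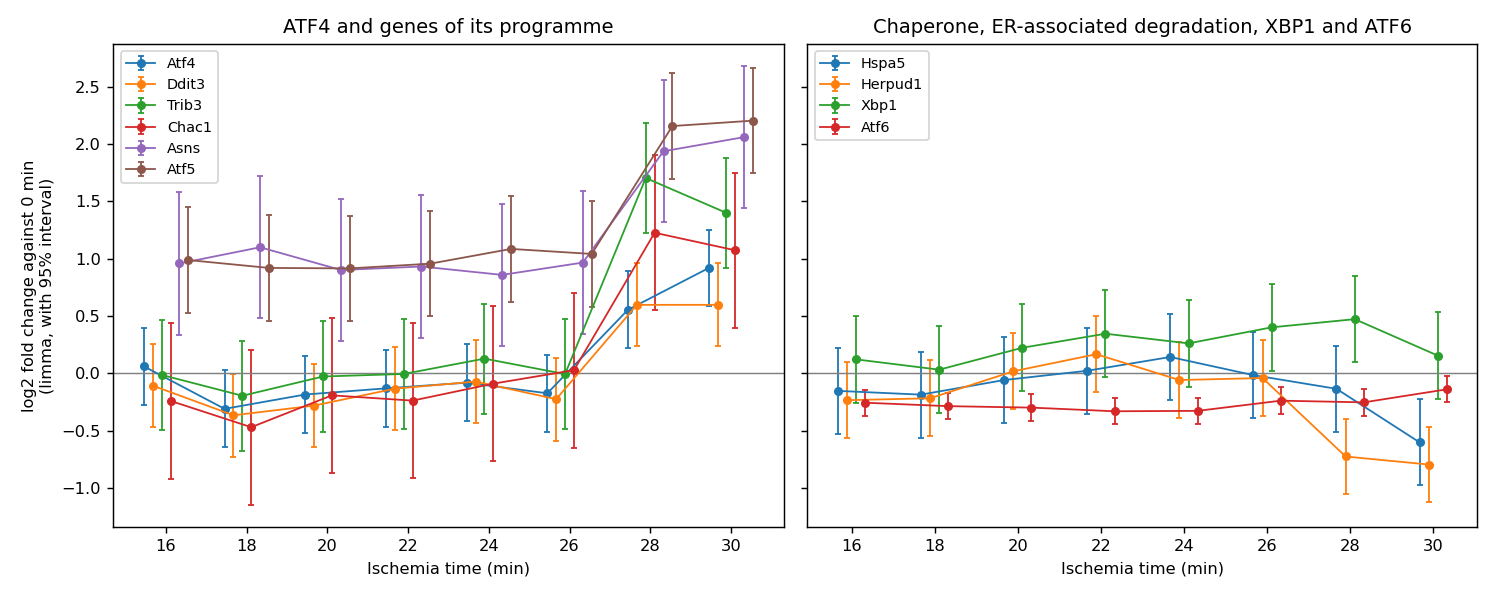
The log2 fold change against 0 min (vertical axis, limma on log2(FPKM + 1)) is plotted against ischemia time in min, with bars for the 95% interval. On the left, Asns and Atf5 lie near 1 from 16 to 26 min and near 2 afterwards, and Atf4, Ddit3, Trib3 and Chac1 leave 0 at 28 min; on the right, Herpud1 reaches -0.80 and Hspa5 -0.60 at 30 min.

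The direct comparison of 28 with 26 min takes no mean from the sham kidneys, which enter it only through the quantile normalization and the estimate of the spread. Here 6 members were higher and 1 was lower, beside 10.8% and 8.52% of all genes, and the groups of 7 members did not overlap, beside 36.5%. Trib3 had the largest log2 fold change, 1.71 ± 0.23, followed by Chac1 with 1.20 ± 0.32 and Atf5 with 1.12 ± 0.22 (limma adjusted p = 6.7e-05, 0.014 and 0.0016). These 3 were DEGs, beside 1.5% of all genes. The values were 0.97 for Asns, 0.82 for Ddit3 and 0.73 for Atf4 (limma adjusted p = 0.027, 0.0025 and 0.0035). Herpud1 was lower by -0.69 ± 0.16 (limma adjusted p = 0.0049). Hspa5 (-0.12, 95% interval -0.49 to 0.26), Xbp1 (0.07, -0.31 to 0.45) and Atf6 (-0.01, -0.13 to 0.10) did not pass. Leaving out 1 of the 6 kidneys left 5 to 7 members passing. Chac1 lost the call without replicate 1 or 2 of 26 min or replicate 3 of 28 min (0.87 to 1.10), and Asns without these or replicate 1 of 28 min (0.86 to 0.99). Fitted on these 6 kidneys alone, Chac1 did not pass (limma adjusted p = 0.11).

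From 28 to 30 min no member passed, beside 13.2% of all genes in either direction. At an unadjusted p under 0.05 there were 2, Atf4 with 0.36 (95% interval 0.03 to 0.70) and Hspa5 with -0.47 (-0.84 to -0.09), and their limma adjusted p-values were 0.15 and 0.094. The kidneys of the pair of times did not overlap for 4 members, these 2 among them, beside 28.3% of all genes. Hspa5 passed without replicate 1 of 30 min (-0.60, adjusted p = 0.037), and also in FPKM without further normalization (-0.56, adjusted p = 0.035).

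When the 6 kidneys of 28 and 30 min were set against the 18 of 16 to 26 min, 7 members were higher and 2 lower, beside 29.6% and 22.5% of all genes. All 6 kidneys were above all 18 for 6 members, Atf4, Ddit3, Trib3, Chac1, Asns and Atf5, beside 14.7% of all genes with no overlap in either direction. The log2 differences of means were 0.87 for Atf4, 0.80 for Ddit3, 1.57 for Trib3, 1.35 for Chac1, 1.05 for Asns and 1.20 for Atf5. Atf6 was higher by 0.09, Herpud1 lower by -0.70 and Hspa5 lower by -0.33, and these 3 overlapped in FPKM. The call of Atf6 was lost without replicate 3 of 30 min (0.08). Within 16 to 26 min no member had a linear trend with ischemia time, beside 0.011% of all genes. The steepest were Chac1 with 0.035 and Xbp1 with 0.032 per min on the log2 scale (limma adjusted p = 0.79 and 0.60), and no member had an unadjusted p under 0.05.

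The ratio of Ddit3 to Hspa5 within a kidney sets the CHOP transcript against the chaperone transcript without normalization between kidneys. It was chosen after the values were seen and is given with no test. On the log2 scale it was -4.61 to -3.84 in sham kidneys, -4.85 to -3.92 from 16 to 26 min, -3.43 to -3.26 at 28 min and -2.91 to -2.71 at 30 min. The kidneys of 28 min were above all shorter times, and those of 30 min above those of 28 min. Between 28 and 30 min mean FPKM of Ddit3 did not rise (25.1 and 24.4), while that of Hspa5 went from 250.2 to 171.5.

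**Figure D3:**
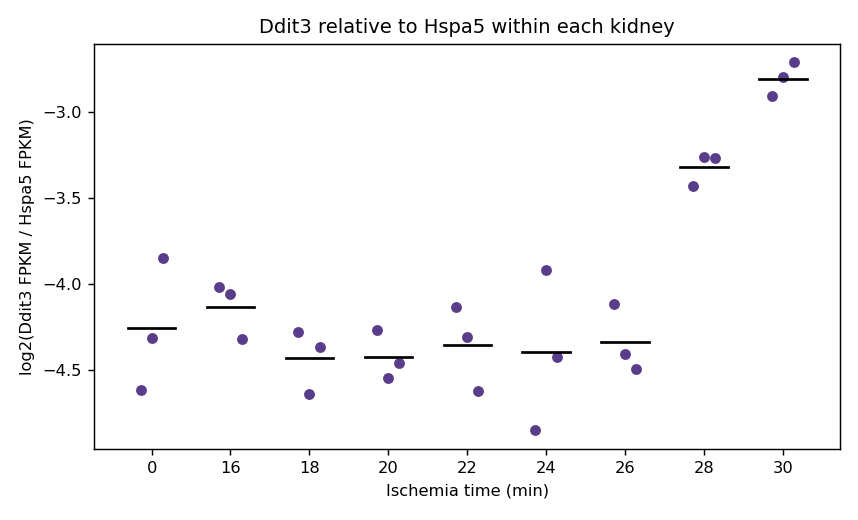
The log2 ratio of Ddit3 FPKM to Hspa5 FPKM in each kidney (points; the lines are means of 3 kidneys) is plotted against ischemia time in min. The means stay between -4.43 and -4.13 up to 26 min and are -3.32 at 28 min and -2.80 at 30 min.

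The wider pathway was followed in 6 lists. At the entry, 12 genes of the eIF2alpha kinases, the phosphatase and the factors eIF2 and eIF2B were tested. At 28 against 0 min 6 were higher and 3 lower, beside 24.5% and 23.6% of all genes, and the 3 became 1 in either other scaling of FPKM. At 28 against 26 min 4 were higher and 1 lower, beside 10.8% and 8.52%, and the 4 ranged from 2 to 5 under the alternatives. At 30 against 0 min 7 were higher and 2 lower, beside 26.9% and 25.4%. The median log2 fold change at 30 min was 0.29, while the median of all genes was 0.00. The largest was Ppp1r15a (GADD34), the CHOP target that leads the phosphatase to eIF2alpha, whose mean FPKM was 8.45 ± 0.76 (SD, n = 3) in sham kidneys, 11.1 ± 0.9 at 28 min and 20.0 ± 2.9 at 30 min. Its log2 fold change at 30 min was 1.04 ± 0.15 (limma adjusted p = 9.5e-06), and at 28 min 0.23 did not pass. Eif2b3 (0.65), a subunit of the exchange factor, and Eif2s1 (0.51), which is eIF2alpha itself, also rose. The kinases Eif2ak2 (PKR, -0.47) and Eif2ak1 (HRI, -0.38) fell at 30 min, a count of 2 that was 1 without sham replicate 2 or 3 and in either other scaling of FPKM.

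Of 25 other targets of ATF4 and CHOP, 14 were higher and 3 lower at both 28 and 30 min, beside 24.5% and 26.9% of all genes higher and 23.6% and 25.4% lower. At 16 against 0 min 7 were already higher and 1 lower, beside 9.43% and 9.61% of all genes. At 26 against 0 min 9 were higher and 1 lower, beside 14.9% and 15.2%. These earlier counts were not recomputed under the alternatives. At 28 against 26 min 8 were higher and 2 lower, beside 10.8% and 8.52%. The count of 8 became 4 without replicate 1 of 26 min, 2 without replicate 2 of 26 min and 4 without replicate 1 or 3 of 28 min. The median log2 fold change at 30 min was 0.76. Gdf15, a secreted stress hormone, rose most, from a mean FPKM of 6.37 ± 3.32 in sham kidneys to 27.2 ± 15.7 at 26 min, 66.7 ± 14.1 at 28 min and 106 ± 35 at 30 min (SD, n = 3). Its log2 fold change at 30 min was 3.88 ± 0.36 (limma adjusted p = 2.3e-08). Eif4ebp1, which holds back cap-dependent translation, had 2.82 ± 0.28, and the stress factor Atf3 2.32 ± 0.40. Atf3 and Gdf15 are also raised by other stress pathways. The 3 that fell were Cth (-1.71 ± 0.14), which makes cysteine, Shmt2 (-0.93), of mitochondrial serine use, and Sesn2 (-0.48), a stress sensor above mTORC1. Mean FPKM of Cth went from 98.9 ± 4.5 in sham kidneys to 68.4 ± 0.8 at 26 min, 47.7 ± 1.0 at 28 min and 30.0 ± 5.4 at 30 min.

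Other genes of this list are given here by name after their values were seen. Of the 3 enzymes of serine synthesis in it, Phgdh (2.09) and Psat1 (1.71) rose at 30 min and Psph (0.40) did not pass. Both enzymes of proline synthesis in it, Aldh18a1 (1.60) and Pycr1 (0.76, at 0.283 FPKM in sham kidneys), rose. At 26 min Phgdh (1.69), Psat1 (0.93), Aldh18a1 (0.97) and Pycr1 (0.76) were higher than sham and Psph (0.27) did not pass. The amino acid transporters Slc7a5 (1.48), Slc7a1 (0.94) and Slc3a2 (0.44) rose at 30 min. Slc7a11, the cystine carrier, was near 0 in sham kidneys (0.03 FPKM) and 0.733 FPKM at 30 min.

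Loading of tRNA is another known output of ATF4. Of 13 genes, 12 cytosolic synthetases and the exporter Xpot, 11 were higher and none lower at 28 and at 30 min, beside 24.5% and 26.9% of all genes higher, with a median of 0.48 at each. At 28 against 26 min 9 were higher, beside 10.8% of all genes, but 5 without replicate 1 of 26 min, 6 without replicate 1 of 28 min and 4 without replicate 2 of 26 min or replicate 3 of 28 min. Against 0 min 1 was higher and none lower at 16 min, beside 9.43% and 9.61% of all genes. At 26 against 0 min 5 were higher and 1 lower, beside 14.9% and 15.2%. For the pooled 28 and 30 min against 16 to 26 min, all 13 were higher, beside 29.6% of all genes, with a median of 0.40. At 30 min the largest were Gars (0.82 ± 0.06, limma adjusted p = 2.6e-09), Cars (0.60) and Iars (0.53). Mean FPKM of Gars was 34.6 ± 1.8 in sham kidneys, 45.3 ± 4.8 at 26 min, 57.7 ± 3.1 at 28 min and 63.6 ± 2.2 at 30 min. Mars1, which shares its locus with Ddit3, had 0.34.

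On the ER side, 9 genes covered sensors and the proteases that cut ATF6. At 28 against 0 min 1 was higher and 3 lower, beside 24.5% and 23.6% of all genes. At 28 against 26 min 1 was lower, beside 8.52%. At 30 against 0 min 2 were higher and 2 lower, with a median of 0.02. These shares were no larger than the 26.9% and 25.4% of all genes. Creb3l3 (0.57), at 0.06 FPKM in sham kidneys, and Creb3 (0.44), both ER-bound factors related to ATF6, rose. Creb3l2 (-0.70) and Mbtps1 (-0.66), the site-1 protease that cuts ATF6, fell. The sensor genes Ern1 (IRE1, -0.13) and Eif2ak3 (PERK, -0.14) did not pass at 30 min.

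Of 16 ER chaperones and folding enzymes, 3 were lower and none higher at 28 min, and 10 were lower and none higher at 30 min. Of all genes 23.6% were lower at 28 min and 25.4% at 30 min, so that the count at 28 min was not above the background. The median at 30 min was -0.37. At 28 against 26 min 2 were lower and none higher, beside 8.52% and 10.8% of all genes. For 28 and 30 min against 16 to 26 min 13 of the 16 were lower and 1 higher, beside 22.5% and 29.6% of all genes. Those with the largest falls at 30 min were Ero1b, an oxidase that forms disulfides (2.05 FPKM against 4.75 in sham kidneys), Sdf2l1, a partner of BiP (-0.91 ± 0.20), and Dnajc3, a co-chaperone (-0.71 ± 0.11). The abundant chaperone calreticulin, Calr, went from 538 ± 33 FPKM in sham kidneys to 543 ± 13 at 28 min and 385 ± 77 at 30 min. Hsp90b1 (GRP94), which like Hspa5 is a target of ATF6, went from 224 ± 12 to 206 ± 1 and 142 ± 25. In the alternative scalings of FPKM, 12 and 13 of the 16 were lower at 30 min and 1 was higher.

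Of 15 genes of ER-associated degradation, 9 were lower and 2 higher at 30 min, and 6 were lower and 2 higher at 28 min. Of all genes 25.4% were lower and 26.9% higher at 30 min, and 23.6% and 24.5% at 28 min. The median at 30 min was -0.31. At 28 against 26 min 4 were lower and none higher, beside 8.52% and 10.8% of all genes, and the 4 ranged from 2 to 4 under the alternatives. Derl3 (-0.86), at 1.27 FPKM in sham kidneys, Edem1 (-0.74) and Os9 (-0.53), which draw misfolded glycoproteins out of the folding cycle, fell most. Vcp (0.60), the ATPase that pulls proteins from the ER and also serves many other processes, and the conjugating enzyme Ube2j1 (0.34) rose.

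**Figure D4:**
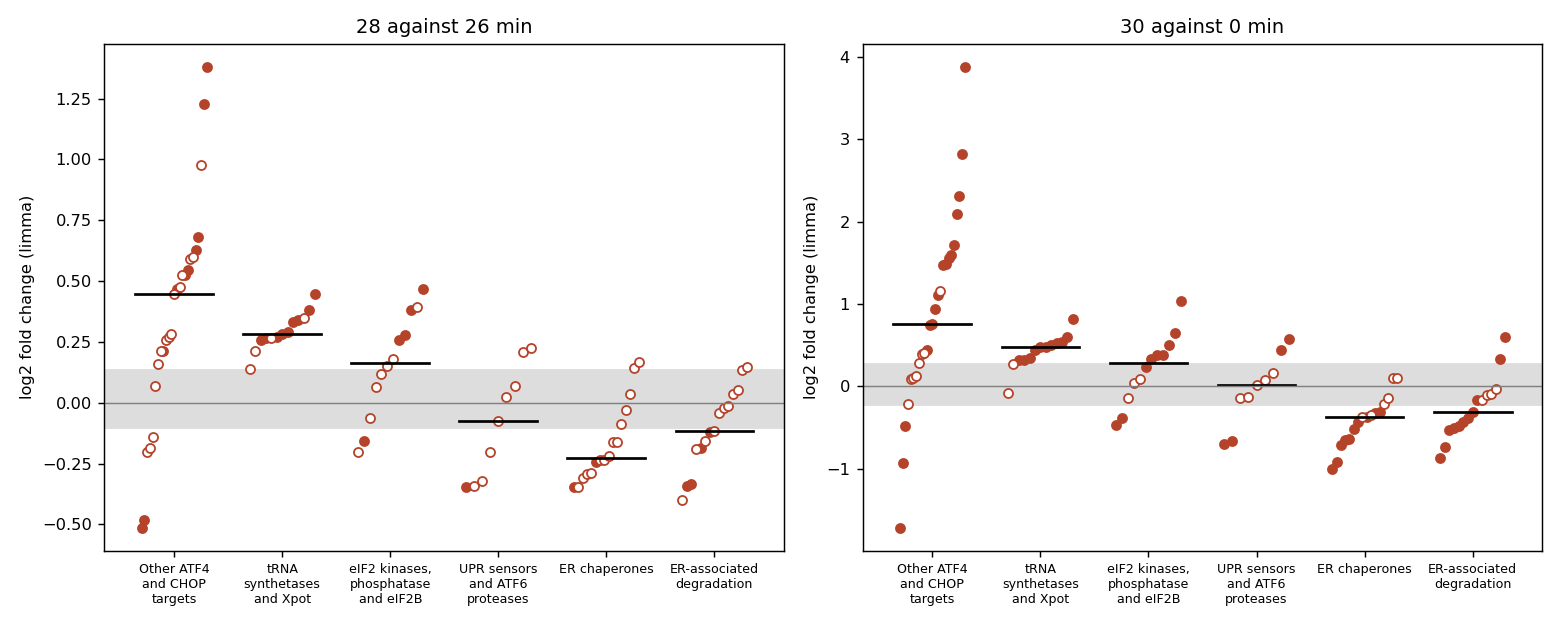
Each point is a gene of 1 of the 6 pathway lists, with its log2 fold change (vertical axis, limma) for 28 against 26 min and for 30 against 0 min; filled points passed the test, open points did not, bars are list medians and the grey band holds the middle 50% of all tested genes. At 30 min the medians run from 0.76 for other ATF4 and CHOP targets to -0.37 for ER chaperones.

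Markers of the cells in a kidney moved over the same ischemia times. All 10 proximal tubule markers were lower at 28 and 30 min than at 16 to 26 min, beside 22.5% of all genes. At 30 min 9 were lower than at 0 min, beside 25.4%. Summed FPKM of 5 injured tubule markers was 15.8 to 90.1 in sham kidneys, 70.7 to 1218 from 16 to 26 min, 2144 to 2264 at 28 min and 2518 to 4918 at 30 min. For 11 leukocyte markers it was 19.8 to 28.4, 31.8 to 89.8, 66.3 to 78.1 and 69.1 to 101. Of the leukocyte markers 5 were higher and 1 lower at 30 min, beside 26.9% and 25.4% of all genes. None of the 11 was at 0 in every kidney. Their median log2 fold change at 30 min was -0.02, so the rise of the sum came from part of the list. For 4 endothelial markers the sum was 56.8 to 68.8 in sham kidneys, 59.3 to 71.1 at 28 min and 79.2 to 123 at 30 min. None of these 4 passed at 28 against 0 min, and 3 were higher at 30 min, beside 26.9% of all genes. For 5 markers of the thick limb and distal tubule the sum was 1902 to 2133, 654 to 936 and 634 to 2401. All 5 were lower than at 0 min at both 28 and 30 min, beside 23.6% and 25.4% of all genes. Plasma cells, which are rich in Xbp1 and chaperones, were followed by 4 markers. Of these, 1 was higher and 2 were lower at 30 min than at 0 min, beside 26.9% and 25.4% of all genes. The one that was higher was Sdc1 (mean FPKM 4.40 in sham kidneys and 25.4 at 30 min), while Mzb1 went from 1.75 to 0.503 and Jchain from 0.367 to 0.17, and Tnfrsf17 was at 0 in every kidney of 30 min. The sum of 4.99 to 7.88 FPKM in sham kidneys and 24.8 to 27.8 at 30 min thus followed Sdc1. The part of these changes in cell makeup in the values of the members was not tested.

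The genes whose fold changes over the 8 ischemia times were nearest to those of a member, by mean absolute difference on the log2 scale among 10212 genes, were found for each. For Atf4 they were Zbtb38, Tma16 and Taf1d, at 0.092 to 0.096, and for Ddit3 Tsr1, Fgd3 and Nsun2, at 0.076 to 0.094. The nearest to Trib3 were Spcs3, Mlkl and Rtn4 (0.14 to 0.21) and the nearest to Chac1 Mgst1, Nectin1 and Adm (0.14 to 0.18). Asns lay nearest to Ctxn1, Cstb and Rnh1 (0.094 to 0.11) and Atf5 to Sdc1, Adamts1 and Ppp1r14b (0.11 to 0.12). Hspa5 lay nearest to Tha1, Hyou1 and Scly (0.056 to 0.068), of which Hyou1 is itself an ER chaperone of the list above. Xbp1 lay nearest to Rbm15b, Nup133 and Ptpn13 (0.047 to 0.061), Atf6 to Ube2b, Ggh and Rnf31 (0.023 to 0.026), and Herpud1 to Gstm1, Nlrx1 and Ldhb (0.093 to 0.099). Among the members themselves the closest pairs were Atf4 with Ddit3 (0.094) and Asns with Atf5 (0.11).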

How the data were processed

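RNA-Seq on a DNBSEQ instrument was done by the authors on 27 left kidneys, and the authors deposited 1 FPKM value for each gene symbol in each kidney, on a linear scale with 2 decimals. The submitters' processing notes name Bowtie2, RSEM and the build GRCm38.p6, with no versions. The paper's quantile normalization and log2 transformation are not in the deposited FPKM, so they were applied here. The values were taken as log2(FPKM + 1), quantile normalized and fitted in R 4.3.3 with limma 3.58.1. The model gave each ischemia time its own mean and covered the 18188 of 19392 genes above 0 FPKM in at least 3 kidneys. A gene passed at a Benjamini-Hochberg adjusted p under 0.05 over all tested genes, and DEGs also had an absolute log2 fold change above 1. The fit was tested on simulated data. The replicates are separate mice. Depth is unknown, and a pseudocount of 0.1, other scalings and filters, a replicate block, fits of the compared groups alone and fits without each kidney were tried.

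The members and lists were chosen with earlier results of these data known. By rule, each member was described at every time, up to 3 passing genes per list and direction with the largest change at 30 against 0 min were named, and the 3 nearest genes with a mean log2 value of at least 2 were given. Of 140 list symbols, 138 were in the table, 4 of them under another symbol. Figures used matplotlib 3.10.9 under Python 3.11.15.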

Additional observations from a re-analysis of the deposited data

Results flagged for a closer look

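The effect of ischemia against sham differed between 26 and 28 min for 7 of the 10 genes, by a direct test of 28 against 26 min over 3 kidneys each. The log2 differences were 0.73 for Atf4, 0.82 for Ddit3, 1.71 for Trib3, 1.20 for Chac1, 0.97 for Asns, 1.12 for Atf5 and -0.69 for Herpud1, and the kidneys of the 2 times did not overlap in FPKM for any of the 7. Over all tested genes 10.8% were higher and 8.52% lower, and 36.5% did not overlap. The call was lost for Chac1 without replicate 1 or 2 of 26 min or replicate 3 of 28 min (0.87 to 1.10), and for Asns without these or replicate 1 of 28 min (0.86 to 0.99). Summed FPKM of the 10 proximal tubule markers was 13755 to 18463 at 26 min and 7893 to 9602 at 28 min. At 28 against 26 min, 8 of the 10 were lower, beside 8.52% of all genes, with a median log2 fold change of -0.99. The part of this fall in the differences of the 7 genes was not tested.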

How the results depend on the processing

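Of 1980 values of the members recomputed under the alternatives, 1909 kept their direction and their side of the threshold or had passed in neither fit, 64 lost the call, 7 gained it and none that passed turned its direction; 91 changed sign where neither fit passed. The count of members passing moved by over 1.5 times in 2 comparisons. At 16 against 0 min, 0 members passed when only those 6 kidneys were fitted, with 16 of all genes passing. At 30 against 28 min, 1 member (Hspa5) passed without further normalization, with FPKM rescaled to a constant sum and without replicate 1 of 30 min. Leaving out 1 kidney gave 0 to 1 members at 30 against 28 min, 7 to 9 at 28 and 6 to 9 at 30 against 0 min, 5 to 7 at 28 against 26 min and 2 to 4 at the shorter times. Atf4 at 28 min lost its call without sham replicate 2 (adjusted p = 0.0504). List counts, whose alternatives were added after seeing the data, ranged from 2 to 9 higher for the other ATF4 targets and 4 to 10 for the tRNA genes at 28 against 26 min, while 9 to 13 chaperones were lower at 30 min. With replicate number as a block, 9 members passed at 28 and at 30 min and 7 at 28 against 26 min, as without it. The numbers do not pair the kidneys: of 108 same-number pairs, 25 had a correlation of deviations over 0.1 (median -0.0087), and 8 of 27 kidneys correlated best with their own number.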
